A study of Mus musculus with 6 samples.

Results

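Protein tyrosine phosphatases of the PTPN (non-receptor) and PTPR (receptor) families were followed in mouse B-lineage acute lymphoblastic leukaemia cells with and without the microRNA miR-182. Members were the protein-coding genes of the deposited count table whose symbol is Ptpn followed by a digit or Ptpr followed by a letter, which gave 38 of 55487 genes, 17 named Ptpn and 21 named Ptpr. One of them, Ptprcap, encodes a protein that associates with CD45 and is itself not a phosphatase. Ptprv, which the authors' annotation lists as a polymorphic pseudogene, is outside the rule.

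The leukaemia model was induced with BCR-ABL (P190) on a WT or a miR-182 KO genotype, and mice aged 6 to 8 weeks entered the bone marrow transplantation. GFP in peripheral blood was followed from 3 weeks after transplantation, and all libraries are labelled Day 0. Marrow cells positive for both GFP and B220 were sorted, and 1.3 ug of total RNA per library went into mRNA sequencing. There were 3 WT libraries (replicates 1, 3 and 4) and 3 KO libraries (replicates 2, 3 and 4). The extraction text shared by all samples writes 182WT/182NC for the sorted cells, while the genotype labels, used here, give WT and miR-182 KO. The series also names a Notch-driven T-lineage leukaemia, but every library used here came from the B220 sort. The labels do not say whether libraries of a genotype came from separate mice or primary leukaemias, so p-values measure only the spread between these libraries, which may be technical. The most abundant immunoglobulin heavy-chain V segment was the same in all 3 KO libraries, the same in WT replicates 3 and 4, and a different one in WT replicate 1, with 20.6% to 34.5% of the heavy-chain V counts. Genotype and individual leukaemia therefore cannot be told apart here. Mir182 itself had 0 counts in all 6 libraries and the mature microRNA is outside what such libraries capture, so these counts hold no check of the genotype.

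Protein tyrosine phosphatases remove phosphate from tyrosine residues and so set the level at which kinases such as BCR-ABL, JAK and the SRC family signal. Some act mainly as brakes, such as SHP-1 (Ptpn6) on B-cell receptor signalling, while others are needed for a signal to pass, such as SHP-2 (Ptpn11) in the RAS-ERK relay and CD45 (Ptprc), which removes the inhibitory phosphate from SRC-family kinases. B220, the marker used in the sort, is the B-lineage form of CD45, so Ptprc is both a member and the gene behind the gate.

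A direct target of miR-182-5p would carry a match to its seed in the 3′ untranslated region. The mature sequence (RefSeq, GRCm38.p6, chr6:30165962-30165986, minus strand) is shown with its seed, bases 2 to 8, in capitals, so that it can be set beside the sites.
mmu-miR-182-5p: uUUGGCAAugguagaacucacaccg
The 7-base match TTGCCAA was found in the 3′ untranslated region of 11.9% of the tested genes with such a region (1428 of 11972). The median length of that region was 1361 bases in the 23 members with enough counts to test and 1164 bases in all tested genes. Ptprg, which had 0 counts in all 6 libraries, held 2 matches, at chr14:12238825-12238854 and chr14:12240087-12240116 on the plus strand (GRCm38). They are printed as examples of what a match looks like and say nothing of the tested members. The match is in capitals and is followed by an A at both sites.
Ptprg first site: acagcattttttTTGCCAAatgtttcataa
Ptprg second site: tatgtgcccattTTGCCAAagtggtccaca
A match of letters is a description and not a shown site of action, and every difference below is relative between the genotypes, so a gain in KO and a loss in WT look alike.

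Total counts ran from 17704382 to 29237035 per library, and levels are given as TMM-normalised CPM (counts scaled to library totals of 1e6), where 3 counts are worth 0.103 to 0.169 CPM depending on the library. Of the 12 B-lineage markers checked against the label, all had counts, and their summed level was 6446 to 7052 CPM in WT and 6484 to 7385 CPM in KO. Markers of other cells differed between the genotypes. All 17 neutrophil markers were detected in every library and were called lower in KO (median log2 fold change -2.95), with a summed level of 41290, 16917 and 29725 CPM in WT replicates 1, 3 and 4 and 1393, 3305 and 7024 CPM in KO replicates 2, 3 and 4. Of 18 monocyte and macrophage markers 15 were called lower and none higher, with summed levels of 1621 to 4827 CPM in WT and 329 to 753 CPM in KO. Among 12 tested T cell markers 7 were called lower and 1 higher, and among 5 tested NK cell markers 3 were called lower. Some markers passed the filter on low counts only through the WT libraries and so had to differ. They were Fcgr1 of the monocyte list, Gata3, Trac, Cd3d and Cd4 of the T cell list and Tbx21 of the NK cell list. The counts of calls in those lists are therefore descriptions. In bulk libraries such as these, fewer cells of a type and less RNA per cell cannot be told apart.

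Of the 38 members, 23 passed the filter on low counts, and 17 of these 23 were called at an adjusted p below 0.05 (edgeR quasi-likelihood test with Benjamini-Hochberg adjustment over all 14481 genes tested), where 52.5% of all tested genes were called. Higher in KO were 5 members, against 23.9% of all genes, and lower were 12, against 28.5%. A called change of at least 2-fold was seen in 8 members, 2 higher and 6 lower, against 20.1% of all genes. In 20 of the 23 the WT and KO libraries did not overlap, against 64% of all genes. The median log2 fold change of the 23 was -0.38, beside -0.0015 for all tested genes, and the median size of the change was 0.57, beside 0.41. Members that passed the filter only through the genotype in which they are high, such as Ptpn14, Ptpn5 and Ptpru, had to differ, so these counts and medians are descriptions. Leaving out WT replicate 4 or KO replicate 2 left 3 members called higher, and leaving out KO replicate 2 left 7 called lower.

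**Figure D1:**
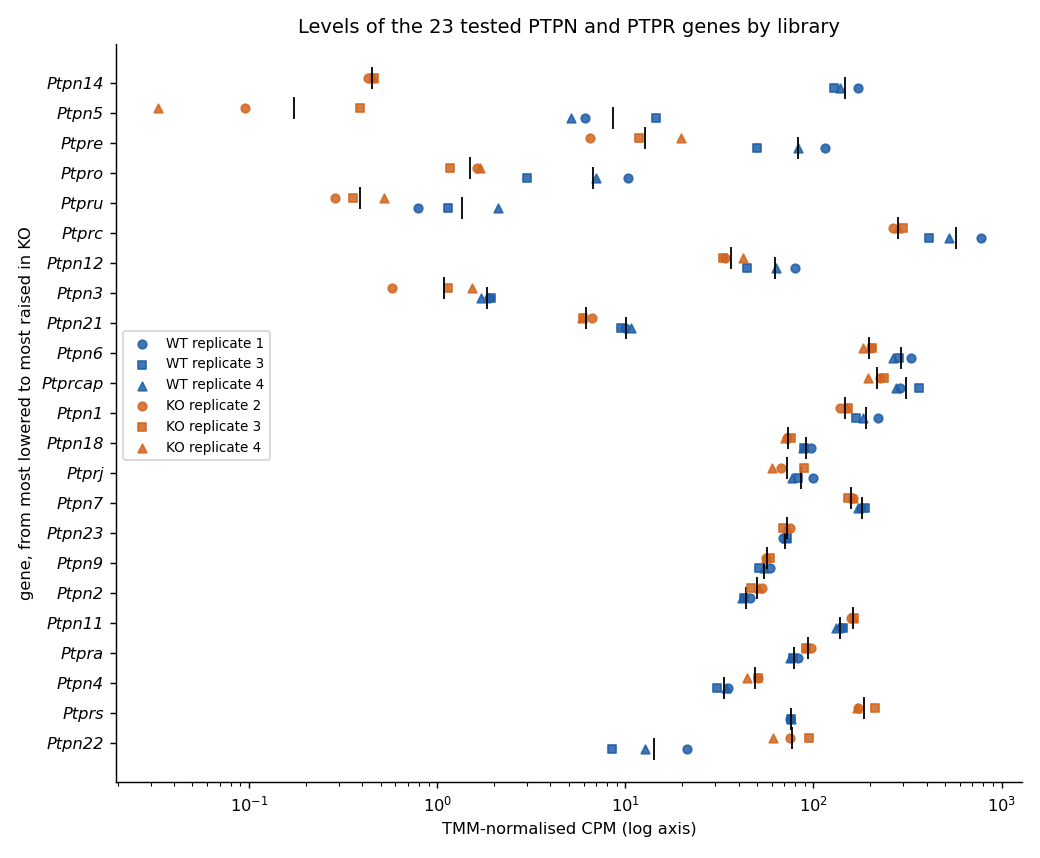
Level of each of the 23 tested members in each library, on a logarithmic axis of TMM-normalised CPM, ordered from the largest fall to the largest rise in KO. Blue symbols are WT and orange symbols KO libraries, shapes mark the replicate number, and black ticks are the mean of 3 libraries. Ptpn14 lies at 128 to 173 CPM in WT and at 0.430 to 0.461 CPM in KO, while Ptpn22 and Ptprs lie higher in every KO library than in any WT library.

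The SH2-domain phosphatases moved in opposite directions, by modest amounts. Ptpn6 (SHP-1, which docks on inhibitory receptors) stood at 328, 285 and 266 CPM in WT replicates 1, 3 and 4 and at 201, 205 and 184 CPM in KO replicates 2, 3 and 4, the order kept for all values below. Every KO library lay below every WT library, and the fall was -0.57 on the log2 scale (SE 0.10, adjusted p = 0.00335), 1.49-fold. Ptpn11 (SHP-2) stood at 140, 143 and 133 CPM in WT and 157, 164 and 163 CPM in KO. Its KO libraries all lay above its WT libraries, with a rise of 0.22 (SE 0.07, adjusted p = 0.0270), which is 1.16-fold. Leaving out WT replicate 4 ended the call of Ptpn11 (adjusted p = 0.111), as did leaving out KO replicate 2 (0.0514), 3 (0.0710) or 4 (0.0628), while that of Ptpn6 was kept in every alternative tried.

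Ptpn1 and Ptpn2, a closely related pair that acts on JAK kinases, lay on opposite sides of zero. Ptpn1 (PTP1B, anchored in the endoplasmic reticulum, with the insulin receptor and JAK2 among its substrates) stood at 220, 169 and 183 CPM in WT and 139, 152 and 150 CPM in KO. The groups did not overlap and it was called lower (-0.38, SE 0.11, adjusted p = 0.0236). It was no longer called with WT replicate 4 left out (adjusted p = 0.0520), nor with KO replicate 2 (0.108), 3 (0.0609) or 4 (0.0655) left out. Ptpn2 (TCPTP, which acts on JAK1, JAK3 and STAT proteins) stood at 46.1, 42.8 and 41.6 CPM in WT and 53.3, 46.5 and 51.3 CPM in KO. Its KO libraries lay above all WT libraries, the lowest of them by a small margin, and it was not called (0.21, SE 0.08, adjusted p = 0.0708), though it was without KO replicate 3 (0.0430).

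The FERM-domain group held the largest change of the family. Ptpn14 (ENSMUSG00000026604, chr1:189728268-189876695, plus strand), a cytoskeletal phosphatase known for binding the Hippo effector YAP, had 2842, 2915 and 2418 counts in WT and 9, 13 and 14 counts in KO. As levels these are 173, 128 and 138 CPM in WT and 0.430, 0.461 and 0.457 CPM in KO. The KO libraries were low and close together, and no library was intermediate. The fitted log2 fold change was -8.32 (SE 0.18, adjusted p = 1.61e-06), a 321-fold difference and the 9th largest fall among all tested genes. Ptpn14 passed the filter on low counts through the WT libraries, so this fall and its rank are descriptions. Its call was kept in every alternative tried, and on log2(CPM + 1) values with limma, which understate changes of low levels, the fall was -6.66. Within WT, Ptpn14 ranked the libraries as the summed neutrophil markers did (replicate 1, then 4, then 3), and within KO it did not. The part of neutrophil marker levels in the fall of Ptpn14 was not tested. The promoter window of Ptpn14 (RefSeq, GRCm38.p6, chr1:189728018-189728317, plus strand, 250 bases before to 50 after the start) is shown because the transcript was nearly undetected in KO, with every CG in capitals. It holds 40 CG pairs, a number reached by 3.91% of the 32851 promoter windows in the table.
Ptpn14 promoter: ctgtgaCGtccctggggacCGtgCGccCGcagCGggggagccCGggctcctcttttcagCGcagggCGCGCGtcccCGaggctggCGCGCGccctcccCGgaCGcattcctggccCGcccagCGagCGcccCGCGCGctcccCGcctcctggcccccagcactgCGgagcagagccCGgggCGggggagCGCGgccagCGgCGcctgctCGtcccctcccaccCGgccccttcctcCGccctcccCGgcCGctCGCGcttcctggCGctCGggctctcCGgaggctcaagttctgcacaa
The other FERM-domain members changed far less. Ptpn4, which carries a PDZ domain, stood at 35.1, 30.6 and 34.4 CPM in WT and 51.0, 50.7 and 44.5 CPM in KO. All 3 KO libraries lay above the WT libraries, a rise of 0.55 (SE 0.09, adjusted p = 0.00333) or 1.46-fold, called in every alternative tried. Ptpn21, the closest relative of Ptpn14, lay at 9.51 to 10.7 CPM in WT and 5.91 to 6.64 CPM in KO and was called lower (-0.71, SE 0.12, adjusted p = 0.00346). Ptpn3, the closest relative of Ptpn4, lay at 1.71 to 1.94 CPM in WT and 0.573 to 1.53 CPM in KO and was not called (-0.74, SE 0.34, adjusted p = 0.104). Ptpn13 had 43 counts over all 6 libraries and was not tested.

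The PEST group, phosphatases with a proline-rich tail that act on SRC-family kinases and the cytoskeleton, split in direction. Ptpn22 (ENSMUSG00000027843, chr3:103859795-103912247, plus strand), which binds CSK and restrains LCK and ZAP-70 in lymphocytes, stood at 21.2, 8.46 and 12.7 CPM in WT and 74.6, 94.4 and 61.2 CPM in KO. The lowest KO library was well above the highest WT library. The rise was 2.45 on the log2 scale (SE 0.33, adjusted p = 0.00147), a 5.47-fold difference and the largest rise in the family. It was called in every alternative tried, and without WT replicate 1 the rise was 2.86. Its promoter window (RefSeq, GRCm38.p6, chr3:103859545-103859844, plus strand) holds 6 CG pairs, a number reached by 56.4% of all windows, and is printed for comparison with that of Ptpn14.
Ptpn22 promoter: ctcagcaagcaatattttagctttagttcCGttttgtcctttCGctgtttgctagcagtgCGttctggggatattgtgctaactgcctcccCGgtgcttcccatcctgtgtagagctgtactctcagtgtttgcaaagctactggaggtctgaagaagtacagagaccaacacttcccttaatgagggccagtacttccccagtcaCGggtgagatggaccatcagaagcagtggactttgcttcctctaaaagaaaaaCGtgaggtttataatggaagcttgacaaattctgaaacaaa
Ptpn12 (PTP-PEST, which acts on p130Cas and PSTPIP proteins) stood at 80.2, 44.2 and 62.9 CPM in WT and 33.9, 33.0 and 42.2 CPM in KO. The groups did not overlap, but WT replicate 3 lay only just above KO replicate 4. It was called lower (-0.78, SE 0.22, adjusted p = 0.0202), and the call ended when WT replicate 4 (0.0568) or KO replicate 2 (0.0702) or 3 (0.0750) was left out. Ptpn18, known from haematopoietic progenitors, stood at 96.7, 89.2 and 88.1 CPM in WT and 72.3, 75.9 and 70.7 CPM in KO. It was called lower (-0.32, SE 0.07, adjusted p = 0.00846), and not without KO replicate 2 (0.0578). Its exons overlap those of Gm28417 on the other strand by 492 bases, and that transcript had 794 counts in all, against 10978 for Ptpn18. Whether the counting used strand is not given in the sources used here.

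Phosphatases with a kinase interaction motif, which dock on ERK and p38, were represented by a gene known from neurons and one from blood cells. Ptpn5 (STEP, ENSMUSG00000030854, chr7:47077795-47133684, minus strand), which in the brain acts on ERK, FYN and glutamate receptors, had 101, 330 and 90 counts in WT and 2, 11 and 1 counts in KO. Its levels were 6.13, 14.5 and 5.14 CPM in WT and 0.0955, 0.390 and 0.0326 CPM in KO. WT replicate 3 was the highest library, and KO replicates 2 and 4 held fewer than 3 counts. The fitted fall was -5.58 (SE 0.73, adjusted p = 0.00127), which is 47.9-fold and depends on the prior count at such low values. It was called at -7.05 with KO replicate 3 left out, at -5.00 with KO replicate 4 left out and at -4.96 with WT replicate 3 left out. The promoter window of Ptpn5 (RefSeq, GRCm38.p6, chr7:47133635-47133934, minus strand) is shown because Ptpn5, like Ptpn14, was nearly undetected in KO. It holds 6 CG pairs against 40 for Ptpn14.
Ptpn5 promoter: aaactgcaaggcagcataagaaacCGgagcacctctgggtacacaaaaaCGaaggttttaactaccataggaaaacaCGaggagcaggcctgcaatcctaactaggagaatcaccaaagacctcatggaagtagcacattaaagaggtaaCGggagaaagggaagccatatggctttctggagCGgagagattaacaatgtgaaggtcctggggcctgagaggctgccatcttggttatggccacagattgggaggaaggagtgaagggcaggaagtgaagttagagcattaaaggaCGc
Ptpn7 (HePTP, the haematopoietic member of this group) stood at 180, 189 and 172 CPM in WT and 162, 153 and 161 CPM in KO. All KO libraries lay below the WT libraries, yet the change was small and not called (-0.18, SE 0.07, adjusted p = 0.0596). Ptprr had 3 counts over all 6 libraries.

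Ptpn9 and Ptpn23, which serve vesicle and endosome traffic, differed least. Ptpn9 (MEG2, found on secretory vesicles) stood at 58.5, 51.5 and 54.4 CPM in WT and 56.3, 58.5 and 56.0 CPM in KO (0.05, SE 0.08, adjusted p = 0.565). Ptpn23 (HD-PTP, which helps sort receptors in endosomes) stood at 68.5, 72.7 and 71.3 CPM in WT and 74.9, 68.9 and 71.9 CPM in KO (0.02, SE 0.07, adjusted p = 0.812). The groups overlapped for both genes. Ptpn20 had 0 counts in every library, which allows up to 0.103 to 0.169 CPM per library, counting error only.

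**Figure D2:**
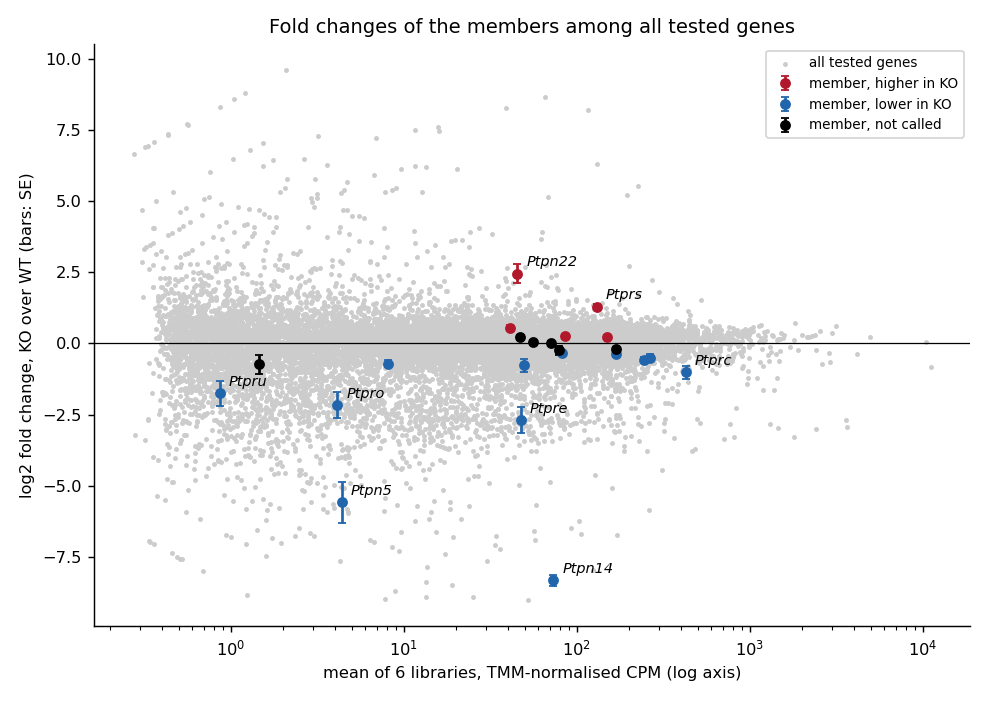
Log2 fold change of KO over WT (vertical axis, bars are the SE) against the mean level of the 6 libraries in TMM-normalised CPM (logarithmic axis). Grey points are all 14481 tested genes, and the 23 members are coloured by call. Ptpn14 lies at -8.32, among the largest falls at its level, and Ptpn22 at 2.45 is the highest member.

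Among receptor-type members, CD45 itself fell. Ptprc (ENSMUSG00000026395, chr1:138062861-138175708, minus strand) stood at 779, 411 and 522 CPM in WT and 265, 297 and 281 CPM in KO. The WT libraries were spread widely (571 ± 189 CPM, SD, n = 3) and the KO libraries narrowly (281 ± 16.2 CPM), with no overlap. The fall was -1.02 (SE 0.22, adjusted p = 0.00775), 2.03-fold, and was called in every alternative tried. Gene counts do not resolve the CD45 isoforms, so the B220 form was not measured separately, and T cells, NK cells and myeloid cells also transcribe this gene. Ptprcap, the CD45-associated protein, stood at 288, 364 and 274 CPM in WT and 226, 236 and 194 CPM in KO. It was called lower (-0.50, SE 0.13, adjusted p = 0.0168), though not without KO replicate 2 (0.0620) or KO replicate 4 (0.0741). Its exons overlap those of Coro1b on the same strand and of Rps6kb2 on the other, so its counts are uncertain.

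Ptprs had the largest rise among receptor-type members. This receptor of the LAR group (ENSMUSG00000013236, chr17:56412426-56476483, minus strand), whose ligands include heparan and chondroitin sulphate proteoglycans, stood at 75.5, 75.8 and 75.7 CPM in WT and 173, 212 and 171 CPM in KO. The WT libraries were nearly equal and every KO library was far above them. The rise was 1.29 (SE 0.10, adjusted p = 0.000156), 2.45-fold, and was called in every alternative tried. The promoter window of Ptprs (RefSeq, GRCm38.p6, chr17:56476431-56476730, minus strand) is shown as that of the other member with a rise of at least 2-fold. It holds 21 CG pairs, a number reached by 24.8% of all windows, against 6 for Ptpn22.
Ptprs promoter: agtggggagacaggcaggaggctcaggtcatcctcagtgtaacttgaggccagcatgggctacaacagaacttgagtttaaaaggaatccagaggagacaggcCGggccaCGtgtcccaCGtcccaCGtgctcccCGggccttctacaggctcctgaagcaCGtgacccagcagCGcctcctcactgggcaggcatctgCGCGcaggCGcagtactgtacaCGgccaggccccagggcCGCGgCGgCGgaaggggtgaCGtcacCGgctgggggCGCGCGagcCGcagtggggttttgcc
The other LAR-group members were close to absent, with 63 counts over all libraries for Ptprf and 4 for Ptprd.

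The short-ectodomain pair Ptpra and Ptpre moved in opposite directions. Ptpre (ENSMUSG00000041836, chr7:135537481-135686293, plus strand), a phosphatase of haematopoietic cells and osteoclasts, stood at 115, 50.1 and 82.3 CPM in WT and 6.50, 11.8 and 19.6 CPM in KO. Both groups were spread, but the highest KO library lay below the lowest WT library. The fall was -2.69 (SE 0.44, adjusted p = 0.00301), 6.44-fold, and was called in every alternative tried. The 6 libraries rank by Ptpre exactly as they rank by the summed neutrophil markers, from WT replicate 1 to KO replicate 2. The exons of Ptpre overlap those of the antisense transcript 5830432E09Rik by 209 bases, and that transcript had 485 counts in all against 5535. Ptpra, a widely expressed activator of SRC, stood at 82.8, 77.6 and 75.1 CPM in WT and 97.0, 91.5 and 90.9 CPM in KO. No library overlapped, and the rise of 0.25 (SE 0.07, adjusted p = 0.0229) was lost without WT replicate 4 (0.0930) or KO replicate 2 (0.0621).

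Of the receptors with fibronectin type III repeats and a single catalytic domain, Ptpro fell and Ptprj did not pass. Ptpro, known from podocytes and as a truncated form in B cells, stood at 10.3, 2.99 and 6.97 CPM in WT and 1.62, 1.17 and 1.70 CPM in KO. WT replicate 3 lay closest to the KO libraries, and the fall was -2.16 (SE 0.45, adjusted p = 0.00674), 4.48-fold. Ptprj (CD148), which shares with CD45 the activation of SRC-family kinases in B cells and macrophages, stood at 98.9, 82.8 and 76.4 CPM in WT and 67.4, 89.1 and 60.5 CPM in KO. KO replicate 3 lay within the WT range, and the difference was -0.25 (SE 0.16, adjusted p = 0.230), called without KO replicate 3 only (-0.41, adjusted p = 0.0493). Ptprb, Ptprh and Ptprq had 0 counts in every library. Ptpru, the tested member of the MAM-domain adhesion receptors, was scarce, at 0.789, 1.15 and 2.12 CPM in WT and 0.287, 0.355 and 0.522 CPM in KO. It was called lower (-1.75, SE 0.44, adjusted p = 0.0137), and not without KO replicate 2 (0.0528) or KO replicate 3 (0.05595). Its relatives Ptprk and Ptprm had 2 and 15 counts over all libraries and Ptprt had 0. The carbonic anhydrase-like receptors Ptprg and Ptprz1 and the secretory granule receptor Ptprn2 had 0 counts, and Ptprn had 3.

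Levels were compared between genes per length, as CPM per kilobase of exon with the exon length given by the authors, leaving out Ptprcap. By this measure Ptpn6 and Ptprc led in WT, at 132 and 121, with overlapping ranges, followed by Ptpn18 at 58.6 and Ptpn7 at 55.2, whose ranges also overlapped, and Ptpn1 at 45.2. In KO, Ptpn6 led at 88.5 and lay above Ptprc at 59.7 in every library, followed by Ptpn7 at 48.7, Ptpn18 at 46.8 and Ptpn1 at 34.8. Ptpn14 ranked 11th in WT at 13.6 per kilobase, overlapping its neighbours Ptpre and Ptpn9, and 22nd in KO at 0.0418. Ptpn22 went from rank 16 to rank 8 and Ptprs from rank 15 to rank 9, where they overlapped each other in KO at 27.8 and 27.0. Without the correction for length, Ptprc ranked 1st and Ptpn6 2nd in both genotypes.

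The summed level of the family was 682, 534 and 555 CPM per kilobase in WT and 463, 486 and 456 CPM per kilobase in KO. Of that sum, Ptpn6 made up 22.4% ± 1.40 in WT and 18.9% ± 0.697 in KO, and Ptprc 20.2% ± 3.97 and 12.8% ± 0.512 (SD, n = 3). Ptpn22 made up 0.845% ± 0.277 in WT and 5.92% ± 1.10 in KO, and Ptprs 1.89% ± 0.244 and 5.76% ± 0.525. Ptpn14 held 2.30% ± 0.0595 in WT and 0.00893% in KO. Receptor-type members held 33.4%, 25.0% and 29.3% of the sum in WT and 23.8%, 25.8% and 24.9% in KO, so the genotypes overlapped in that share.

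**Figure D3:**
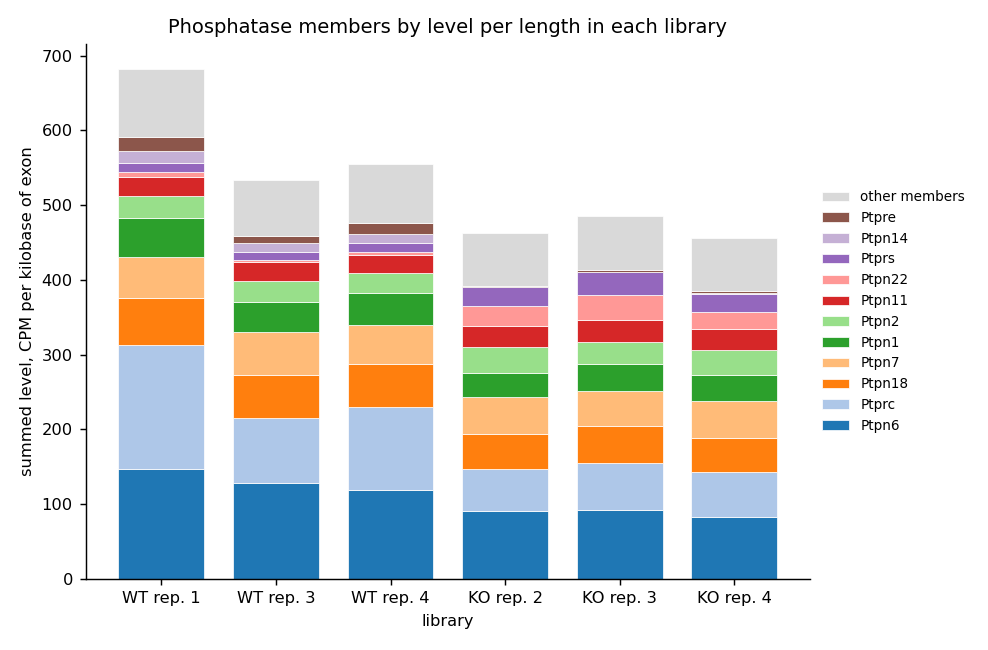
Summed level of the members in each library in CPM per kilobase of exon, stacked by gene, with the 11 genes named in the legend and all others in grey. Bars run from 456 in KO replicate 4 to 682 in WT replicate 1. The Ptpn22 and Ptprs segments are wider in KO, and the Ptpn14 segment is visible in WT only.

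The order of the libraries by neutrophil marker level was shared by some members and not by others. With 3 libraries in a genotype few orders are possible, so some members share one by accident. The share of all tested genes with the same order was not computed, so these counts are descriptions. In WT the order of the 3 libraries by the summed neutrophil markers (replicate 1, then 4, then 3) was also their order for 6 of the 12 members called lower, namely Ptpn14, Ptpre, Ptpro, Ptprc, Ptpn12 and Ptpn1. The same order was seen for 2 of the 5 called higher, Ptpn4 and Ptpn22, and for 1 of the 6 not called, Ptpn9. In KO (replicate 4, then 3, then 2) it was seen for Ptpre and Ptpru among those called lower and for Ptpn3, which was not called. Within WT, Ptpre varied from 50.1 to 115 CPM and Ptprc from 411 to 779 CPM while the marker sum varied from 16917 to 41290 CPM, and the highest library was replicate 1 in each case. Ptpn5, Ptpn6, Ptpn18, Ptpn21 and Ptprcap were called lower in KO without following that order in either genotype. The part of neutrophil, monocyte or other marker levels in the changes of these members was not tested.

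**Figure D4:**
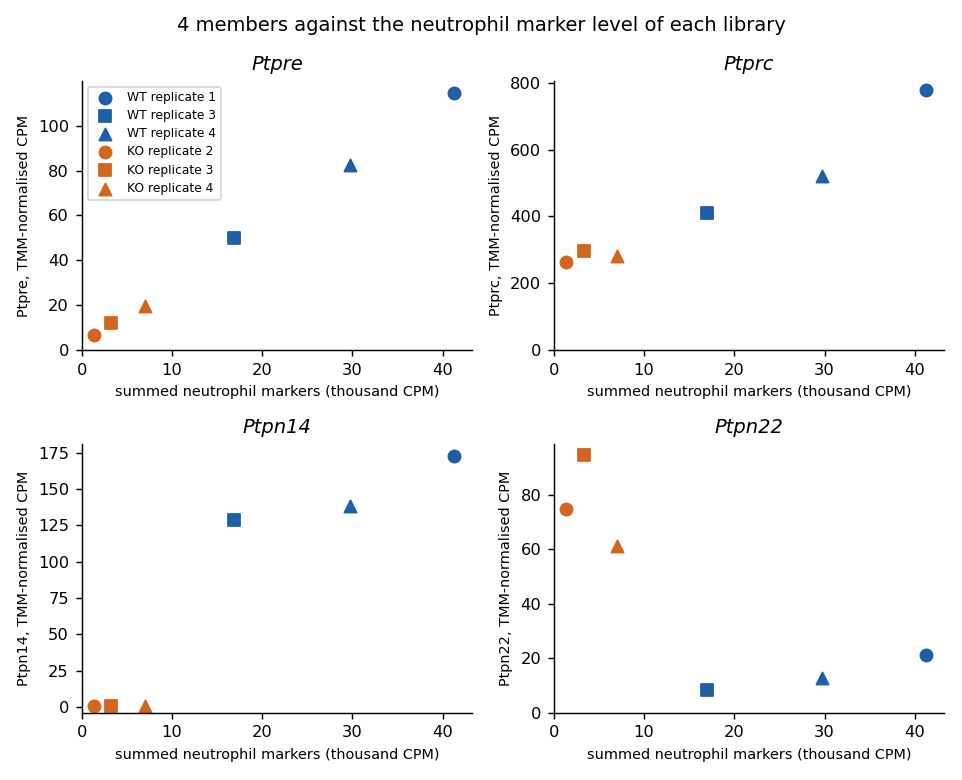
Levels of 4 members in each library in TMM-normalised CPM, against the summed level of the 17 neutrophil markers, on an axis in multiples of 1000 CPM. Blue symbols are WT and orange symbols KO libraries. Ptpre rises with the marker level over all 6 libraries, Ptprc is highest in WT replicate 1, Ptpn14 stays below 1 CPM in KO, and Ptpn22 is above 60 CPM in all KO libraries.

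Genes that work with these phosphatases were counted in lists that group them by role. The shares of all tested genes to read each count against are 23.9% called higher and 28.5% called lower, 52.5% in all. Of 23 tested members of the wider tyrosine phosphatase superfamily, 2 were called higher and 9 lower (median -0.22), in all fewer than the share of all genes. Ptpdc1, a centrosome-related relative, went from 38.0 ± 1.08 to 0.329 ± 0.0800 CPM (SD, n = 3), a fall of -6.79 (SE 0.16, adjusted p = 1.82e-06). Ptpdc1 passed the filter on low counts only through the WT libraries, so it had to differ. Its fall, and the count and median of this list, which include it, are descriptions. Eya1, a phosphatase and transcription cofactor, fell by 1.84 on the log2 scale from 18.7 ± 0.138 to 5.26 ± 1.07 CPM (adjusted p = 0.000249). The lipid phosphatase Mtmr6 (-0.82, adjusted p = 0.00122) and the cofilin phosphatase Ssh3 (-0.72, adjusted p = 0.00219) were also called lower.

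Kinases that CD45, CD148, SHP-1 and PTPN22 act on were mostly called lower. Of 17 tested SRC-family, SYK and TEC kinases with their regulators, 11 were called lower and 2 higher, with a median of -0.66. Pag1, the membrane anchor of CSK, went from 226 ± 30.1 to 59.6 ± 7.03 CPM (-1.92, SE 0.13, adjusted p = 9.67e-05). Matk, a relative of CSK, was called lower at -2.01 (adjusted p = 0.00106). Lck, the T cell SRC-family kinase, stood at 45.2, 105 and 44.0 CPM in WT and at most 13.7 CPM in KO (-2.53, adjusted p = 0.00207). The number called higher was 1 without WT replicate 4 or without KO replicate 3.

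Receptors with inhibitory motifs that dock SHP-1 or SHP-2 were mostly called lower, as was Ptpn6. Of 17 tested, 12 were called lower and 1, the B-cell receptor inhibitor Cd22, higher (0.82), with a median of -1.94. Leaving out WT replicate 4 left 0 called higher, and leaving out WT replicate 3 or KO replicate 4 left 2. Klrb1c, counted among the 12, is an activating NK cell receptor (NK1.1) without the inhibitory motif and so does not match the list's name; it went from 49.3 ± 6.94 to 1.93 ± 0.661 CPM (-4.67, SE 0.25, adjusted p = 3.22e-05). Fcgr2b, the inhibitory Fc receptor of B cells and myeloid cells, went from 159 ± 7.17 to 76.2 ± 10.9 CPM (-1.06, SE 0.11, adjusted p = 0.000555). Ceacam1 (-1.94, adjusted p = 0.000979) and Sirpa, a myeloid receptor (-2.47, adjusted p = 0.00291), were called lower, and Sirpa ranked the 6 libraries as the neutrophil markers did. Many of these receptors are carried by myeloid cells, whose markers were lower in the same libraries; their part was not tested.

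In the SHP-2 and RAS-ERK list 3 of 22 were called higher and 8 lower (median -0.18), in all no more than the 52.5% of all genes, and without WT replicate 4 the number called higher was 1. The exchange factor Sos2 was called lower at -0.80 (adjusted p = 0.000823), the ubiquitin ligase Cbl at -0.58 (adjusted p = 0.00239), the kinase Braf at -0.70 (adjusted p = 0.00340) and the scaffold Gab3 at -1.51 (adjusted p = 0.00566). Of 15 tested JAK-STAT and cytokine receptor substrates 1 was called higher and 7 lower (median -0.29). Jak2, a substrate of PTP1B, went from 99.4 ± 13.6 to 53.4 ± 4.55 CPM (-0.90, SE 0.12, adjusted p = 0.00131), and the insulin receptor Insr from 66.0 ± 6.96 to 42.9 ± 1.68 CPM (-0.62, SE 0.09, adjusted p = 0.00220). Stat6 was called lower as well (-0.56, adjusted p = 0.00492). The riser was Il7r, the receptor of the lymphoid cytokine IL-7, at 0.69.

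Partners of the PEST group and of Ptpn14 included large rises. Of 11 tested PEST partners 3 were called higher and 4 lower (median -0.13), close to the shares of all genes, 23.9% and 28.5%. Ptk2, the focal adhesion kinase, stood at 3.28, 2.47 and 3.60 CPM in WT and 52.2, 52.8 and 49.4 CPM in KO, a rise of 4.06 (SE 0.15, adjusted p = 7.08e-06). Pstpip1 (-1.27, adjusted p = 0.00159) and Pstpip2 (-2.35, adjusted p = 0.00267), adaptors that carry PTP-PEST to the cytoskeleton, were called lower, and Cd2ap higher at 0.60 (adjusted p = 0.00107). Of 13 tested Hippo partners of PTPN14, 5 were called higher and 4 lower, with a median of 0.02, beside 23.9% and 28.5% of all genes. Tead1, the DNA-binding partner of YAP, had 7, 6 and 4 counts in WT and 22.5, 23.5 and 23.2 CPM in KO. Yap1 had 1, 2 and 2 counts in WT, below the floor, and 1.63 ± 0.133 CPM in KO. Both genes passed the filter on low counts through the KO libraries, so they had to differ, and the count and median of this list, which include them, are descriptions. Ajuba, a LIM-domain adaptor of the pathway, was called higher (0.488 ± 0.109 to 4.33 ± 0.610 CPM, adjusted p = 0.000185). It had only 6 counts in WT replicate 1, and its WT libraries alone would not have passed the filter. The rise of Ajuba is therefore a description as well. The MST scaffold Sav1 was called lower (-1.39, adjusted p = 9.97e-05).

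Ligands and cytoplasmic partners of the receptor members were sparse, with 9 of 29 at 0 counts in all libraries and 12 tested. Of these 2 were called higher and 4 lower (median 0.0018). Ppfia3, 1 of the 2 called higher, had 3, 4 and 1 counts in WT and 14, 16 and 15 counts in KO. It passed the filter on low counts only through the KO libraries, so it had to differ. The count and median of this list, which include Ppfia3, are descriptions. The liprins Ppfibp1 (0.77, adjusted p = 0.000736) and Ppfibp2 (-1.84, adjusted p = 0.000991) moved in opposite directions. The galectin Lgals3 (-2.73, adjusted p = 0.00282) and Pilra (-2.83, adjusted p = 0.00486), a receptor of myeloid cells, were called lower. Both ranked the 6 libraries as the summed neutrophil markers did, and the part of those marker levels was not tested.

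**Figure D5:**
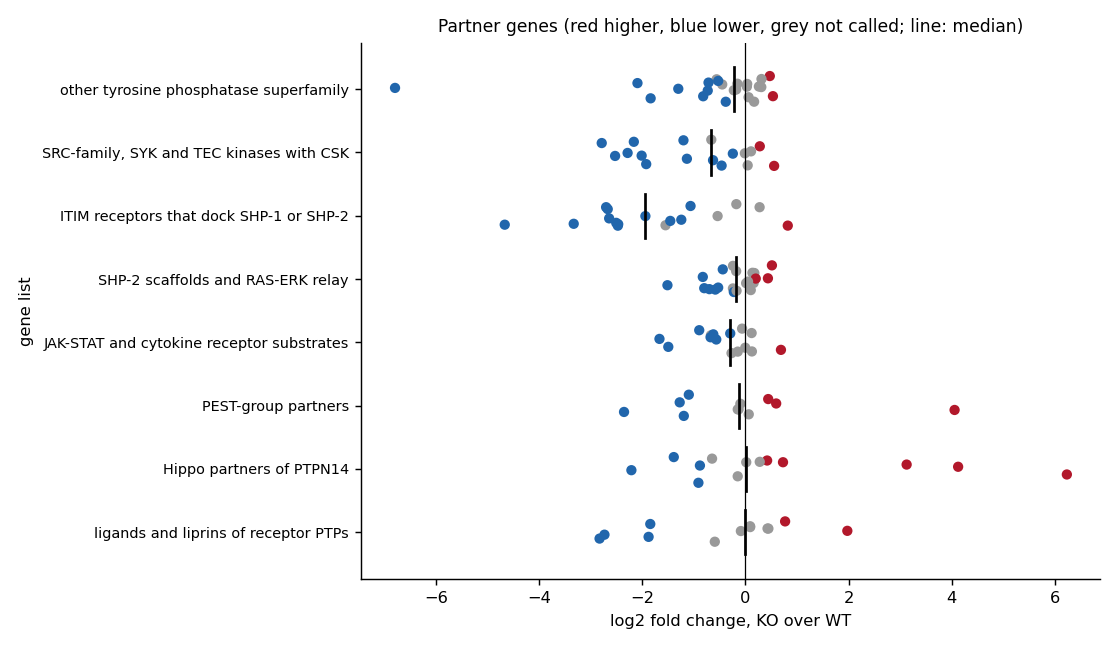
Log2 fold change of KO over WT for the tested genes of 8 partner lists (1 row per list, 1 point per gene), with red called higher, blue called lower and grey not called, and a black tick for the list's median. The inhibitory receptor list has the lowest median, -1.94, and Ptpdc1 at -6.79 and Tead1 at 6.23 lie farthest from zero. Both genes passed the filter on low counts only through the genotype in which they are high.

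Promoter windows of 300 bases were found for 20 of the 23 tested members, with a median of 23.5 CG pairs against 7 over all windows in the table. Windows were searched on both strands for the STAT motif TTCNNNGAA, the E-box CAGCTG and the ETS motif AGGAAGT, which occur in 8.30%, 16.3% and 9.35% of all windows. Among the tested members 1 held the STAT motif (Ptpn23), 2 the E-box (Ptpn7 and Ptpn23) and 3 the ETS motif (Ptpn5, Ptprc and Ptpn6). These are matches of letters only. The windows in the table include genes that were not tested and several starts of some genes. CG pairs and motif shares were not computed for the windows of tested genes alone, so both comparisons are descriptions. The authors' deposited table of the same comparison lists 25 members, with 5 higher and 12 lower at an FDR below 0.05 and 8 of these at least 2-fold.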

How the data were processed

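Messenger RNA was measured in 6 libraries of sorted leukaemia cells, 3 WT and 3 KO, grouped by the genotype in the labels. The deposited table holds whole-number counts per gene and the authors' exon length, symbol, biotype and position, per the file headers. The submitters' processing notes name GRCm38 (mm10) as genome build. Which aligner and counter were run is not given in the sources used here. A second table holds the authors' own comparison, with log2 fold changes and FDR (adjusted p-value) columns per the file headers, and was used only where it is named. Further deposited tables of normalised levels were not used.

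Counts were fitted with edgeR 4.0.16 in R 4.3.3: filterByExpr (minimum count 10, minimum total 15), TMM factors, a quasi-likelihood F test on genotype, and Benjamini-Hochberg adjustment over the 14481 genes tested, at a threshold of 0.05. Adjusted p-values in the text come from this fit unless another source is named. The SE is the log2 fold change divided by the square root of F. limma 3.58.1 and DESeq2 1.42.0 served as alternatives, with other scalings and filters and each library left out. The procedure was tested on simulated data. Intervals and floors cover counting error only. The longest 3′ untranslated region annotated for a gene was searched for seed matches, promoter and microRNA sequences come from RefSeq (GRCm38.p6), and figures were drawn with matplotlib 3.10.9. Values per library are given for members with a called change of at least 2-fold or a mean of at least 20 CPM in one genotype. Up to 4 genes with the smallest p of each partner list are named. Cd22, Il7r and Ppfia3, and the markers Fcgr1, Cd3d and Cd4, were named after their values were seen. Some results, among them seed matches in tested members, are not reported here. Members and lists were chosen with earlier results of these data known. Replicates were compared pairwise before use, and none agreed within sampling noise (chi-square per degree of freedom 11.1 to 78.2).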

Additional observations from a re-analysis of the deposited data

How the results depend on the processing

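Over 15 alternative fits, 12 of the 23 tested members kept their direction and their side of the threshold, and 10 of these were called in all of them. Of the genes tested, 3466 were called higher and 4133 lower; leaving out 1 library gave 2396 to 3848 and 3218 to 4479. Leaving out 1 library gave 3 to 5 members higher and 7 to 13 lower, and a median log2 fold change of the tested members from -0.41 to -0.29. That median was -0.32 with upper-quartile factors and -0.31 with no filter on low counts. Replicate numbers 3 and 4 are shared by the genotypes, and the deviations of same-numbered libraries correlated at 0.052 and 0.21. Libraries of unlike number correlated lower, at -0.42 (WT 3 with KO 4) and -0.17 (WT 4 with KO 3). These values do not settle whether the numbers mark pairs, and the main fit did not take them as pairs. With the replicate number as a block, 2925 genes were called higher and 3842 lower, with 3 members higher, 11 lower and a median of -0.28; Ptpn1 (adjusted p = 0.109), Ptpn11 (0.0738) and Ptpra (0.0627) were not called, Ptprc stood at -0.68, and Ptpn23 turned to -0.0327. With 1 library left out, Ptpn23 ranged from -0.0063 to 0.0715. Ptpn1 (0.0529) and Ptpn18 (0.0637) lost their call with no filter, Ptpn7 gained one with DESeq2 (0.0476) or a filter of 1 CPM (0.0490), and Ptpn2 with upper-quartile factors (0.0272). On log2(CPM + 1) values with limma, Ptpn14 stood at -6.66 and Ptpn5 at -2.92. With the block, the SRC, SYK and TEC list had 1 gene higher in place of 2. With DESeq2, its size factors, upper-quartile factors or no filter, 2 inhibitory receptors were higher in place of 1. The ligand list had 4 higher with no filter and 1 with the 1 CPM filter, in place of 2. The cause of these shifts was not tested. Members under 3 counts per library, such as Ptpn5 in KO replicates 2 and 4, are limited by depth.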
